A study of Mus musculus with 4 samples.

Results

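The ATP-binding cassette (ABC) transporters are membrane pumps that use ATP to move lipids, drugs, peptides, porphyrins and conjugated metabolites across cell and organelle membranes. Their genes were taken from the deposited table by symbol alone, as every row whose symbol begins with Abc, a subfamily letter from a to g and a digit, with no filter on level. This gave 50 genes of the 22083 in the table, namely 16 of subfamily A, 10 of B, 10 of C, 4 of D, 1 of E, 3 of F and 6 of G. The levels were measured by RNA sequencing in group 2 innate lymphoid cells (ILC2s), tissue-resident lymphocytes that produce type 2 cytokines. Sorted cells of 2 sources were used, the small intestinal lamina propria (SI-ILC2s) and the white adipose tissue of the mesentery (WAT-ILC2s), with 2 libraries of each. All mice were C57BL/6 wild types at 9 weeks of age, and the labels give no treatment. Whether separate mice stand behind the libraries of a tissue is not stated, so the spread between libraries may be technical. An effect of isolating cells from each tissue cannot be told apart from a difference between the ILC2s.

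The multidrug pump P-glycoprotein, encoded in mice by the paralogs Abcb1a and Abcb1b, expels hydrophobic compounds and is best known from intestinal epithelium and the blood-brain barrier, where it limits the uptake of drugs. Relatives in subfamily C export glutathione and glucuronide conjugates, cyclic nucleotides and eicosanoids. Abca1, Abcg1 and their relatives load sterols and phospholipids onto lipoproteins, a programme switched on by the liver X receptors (LXRs). The proteins of subfamilies E and F have ATPase domains without a membrane span and act on ribosomes and translation rather than on transport.

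Abcb1a, Abcb1b and Abcb4 lie side by side on the plus strand of chromosome 5 (GENCODE M21, build GRCm38), at 8660077 to 8748575, 8798147 to 8866315 and 8893717 to 8959231, and are similar enough for reads to fit more than 1 of them. The longest coding sequences of the 3 genes had 3828 bases each. Abcb1a and Abcb1b were 88.2% identical over 3816 aligned bases, with a longest identical run of 338 bases, whereas Abcb1a and Abcb4 were 76.3% identical, with a longest run of 110 bases. The first 150 bases of the longest run are given below as an example of sequence in which reads of the pair cannot be told apart. The stretch was taken from that run, so the identity of the pair within it is fixed by the choice, and Abcb4 is set beside it. The stretch runs from coding position 1357 to 1506 in Abcb1a and from 1366 to 1515 in Abcb1b and in Abcb4, with the first base of the start codon counted as position 1. Capitals in the Abcb4 line mark the 31 bases that differ from Abcb1a.
Abcb1a: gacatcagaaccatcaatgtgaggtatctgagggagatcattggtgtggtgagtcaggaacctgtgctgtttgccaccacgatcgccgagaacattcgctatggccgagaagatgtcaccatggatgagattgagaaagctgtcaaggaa
Abcb1b: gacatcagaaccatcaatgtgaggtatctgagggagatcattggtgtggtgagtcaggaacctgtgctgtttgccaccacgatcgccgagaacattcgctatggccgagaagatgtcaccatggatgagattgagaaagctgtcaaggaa
Abcb4: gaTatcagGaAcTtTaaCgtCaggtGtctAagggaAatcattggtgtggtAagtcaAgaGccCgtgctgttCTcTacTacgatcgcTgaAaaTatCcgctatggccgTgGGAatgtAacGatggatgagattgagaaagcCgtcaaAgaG
Over all annotated transcripts, 16.3% of the distinct 50-base words of Abcb1a were also in Abcb1b and 2.33% were in Abcb4, and 11.1% of those of Abcb1b were in Abcb1a. No source used here says how reads that match several genes were counted, so part of the values of the 3 genes may have been exchanged or lost between them.

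Sequences upstream of the start sites are shown for these 3 genes, whose SI-ILC2 libraries all lay above their WAT-ILC2 libraries, and for Abcg2 and Abcg3, paralogs on different chromosomes that were both called higher in WAT-ILC2s and kept a near-constant ratio. Each is the 250 bases before a RefSeq start (GRCm38.p6), read 5′ to 3′ on the gene's strand. The windows are chr5:8566841-8567090 (plus) for Abcb1a, chr5:8797897-8798146 (plus) for Abcb1b, chr5:8893471-8893720 (plus) for Abcb4, chr6:58584283-58584532 (plus) for Abcg2 and chr5:104982718-104982967 (minus) for Abcg3. Capitals mark matches, on either strand, to any of 7 motifs, namely the GC box GGGCGG, the CCAAT box CCAAT, the TATA core TATAA, the AP-1 site TGACTCA, the core of the hypoxia response element ACGTG, the core of the xenobiotic response element GCGTG and the nuclear receptor hexamer AGGTCA.
Abcb1a: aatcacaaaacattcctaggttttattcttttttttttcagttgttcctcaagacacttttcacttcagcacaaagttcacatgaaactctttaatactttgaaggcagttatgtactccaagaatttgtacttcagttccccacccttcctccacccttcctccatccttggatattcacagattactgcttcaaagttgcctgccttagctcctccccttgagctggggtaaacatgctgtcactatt
Abcb1b: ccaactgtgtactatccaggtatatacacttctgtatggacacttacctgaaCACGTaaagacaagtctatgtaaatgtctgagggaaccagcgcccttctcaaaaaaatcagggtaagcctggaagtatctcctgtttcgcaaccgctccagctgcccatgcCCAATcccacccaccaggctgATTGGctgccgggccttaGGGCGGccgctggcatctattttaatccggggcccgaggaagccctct
Abcb4: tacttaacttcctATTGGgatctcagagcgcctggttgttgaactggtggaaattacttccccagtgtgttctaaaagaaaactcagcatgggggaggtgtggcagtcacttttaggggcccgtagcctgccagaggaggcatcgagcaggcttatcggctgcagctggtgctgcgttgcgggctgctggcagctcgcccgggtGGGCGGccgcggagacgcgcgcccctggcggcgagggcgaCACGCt
Abcg2: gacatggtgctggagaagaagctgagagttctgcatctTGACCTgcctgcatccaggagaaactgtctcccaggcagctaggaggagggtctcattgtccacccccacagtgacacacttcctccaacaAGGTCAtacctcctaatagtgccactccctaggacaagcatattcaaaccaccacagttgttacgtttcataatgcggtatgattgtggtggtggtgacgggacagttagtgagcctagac
Abcg3: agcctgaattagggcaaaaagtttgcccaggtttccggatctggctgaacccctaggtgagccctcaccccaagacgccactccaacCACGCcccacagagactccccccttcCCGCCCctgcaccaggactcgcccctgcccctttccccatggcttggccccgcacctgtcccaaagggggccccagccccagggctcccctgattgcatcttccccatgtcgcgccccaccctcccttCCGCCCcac
The Abcb1b window held CCAAT on both strands, with 1 GGGCGG and 1 ACGTG. The Abcb4 window held 1 CCAAT, 1 GGGCGG and 1 GCGTG, the Abcg3 window 2 of GGGCGG and 1 GCGTG, and the Abcg2 window 2 of AGGTCA. Among all 32851 RefSeq windows of the same length, GGGCGG was found in 32.7%, CCAAT in 33.8%, TATAA in 22.8%, TGACTCA in 4.46%, ACGTG in 16.6%, GCGTG in 28.2% and AGGTCA in 14%. Windows were given for 38 of the 50 genes, and of these 45 windows 44.4% held GGGCGG, 28.9% CCAAT and 28.9% GCGTG. The Abcb1a window held none of the 7 motifs. Its RefSeq start, at 8567091, lies 92986 bases before the first base of Abcb1a in GENCODE and inside the gene Rundc3b (8490334 to 8622952), which runs on the opposite strand. RefSeq lists 3 starts for Abcg2, of which the first is shown.

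RNA levels are given as RPKM, read numbers scaled to gene length and library size, as the authors deposited them, for replicates 1 and 2 of each tissue. Changes are log2(RPKM + 1) of SI-ILC2s less that of WAT-ILC2s, with the standard error (SE) of a limma fit to all genes that reached 1 RPKM in at least 2 libraries. A gene is said to be called when its Benjamini-Hochberg adjusted p in that fit was below 0.05. The ABC genes were singled out with results of this same comparison in view, so their calls are a description, and no p-value is given. Of 8230 genes tested, 47.5% were called, 1470 of them (17.9% of the tested) toward SI-ILC2s and 2436 (29.6%) toward WAT-ILC2s. SI-ILC2s thus held 37.6% of the calls, against 48.4% after quantile normalization and 28.01% after rescaling to equal sums. The median change over these 8230 genes was -0.15, against -0.26 after rescaling to equal sums and -0.02 after quantile normalization. From the steps between low values of genes with a single exon, the depth was estimated at 55400000 to 76600000 reads per library. All 15 ILC2 markers were tested, and 5 were called higher in SI-ILC2s, 5 higher in WAT-ILC2s and 5 in neither. Gata3 was not called, at 354 and 377 RPKM in SI-ILC2s, against 338 and 397 RPKM in WAT-ILC2s. The 5 toward SI-ILC2s were Il17rb (change 3.54), Il13 (2.09), Icos (1.91), Id2 (0.98) and Rora (0.90), and the 5 toward WAT-ILC2s were Thy1 (-2.35), Il1rl1 (-2.05), Arg1 (-1.57), Il7r (-0.84) and Ptprc (-0.51).

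None of the 50 ABC genes was listed at 0 in any library. In SI-ILC2s 12 and 15 of them reached 1 RPKM, and in WAT-ILC2s 20 in each library. A level of 1 RPKM was reached in at least 1 library by 23 genes, and 27 stayed below it in all 4, of which 19 were below 0.2 RPKM throughout. The filter left 18 of the 50 for the fit. Of these, 10 were called, beside 47.5% of all tested genes, with 3 higher in SI-ILC2s, beside 17.9%, and 7 higher in WAT-ILC2s, beside 29.6%. Abcb8, Abcc5, Abcg2 and Abcg3 passed the filter through WAT-ILC2s alone. The tissues did not overlap for 33 of the 50 genes, with SI-ILC2s above in 14 and WAT-ILC2s above in 19, beside 23% and 30.8% of all genes. Among the 18 tested, SI-ILC2s were above in 4 and WAT-ILC2s in 11, beside 29.8% and 45.9% of tested genes. The median change of the 18 was -0.44. Replicate 2 lay above replicate 1 for 16 of the 18 in SI-ILC2s and for 16 in WAT-ILC2s, against 56.5% and 53.4% of all tested genes.

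**Figure D1:**
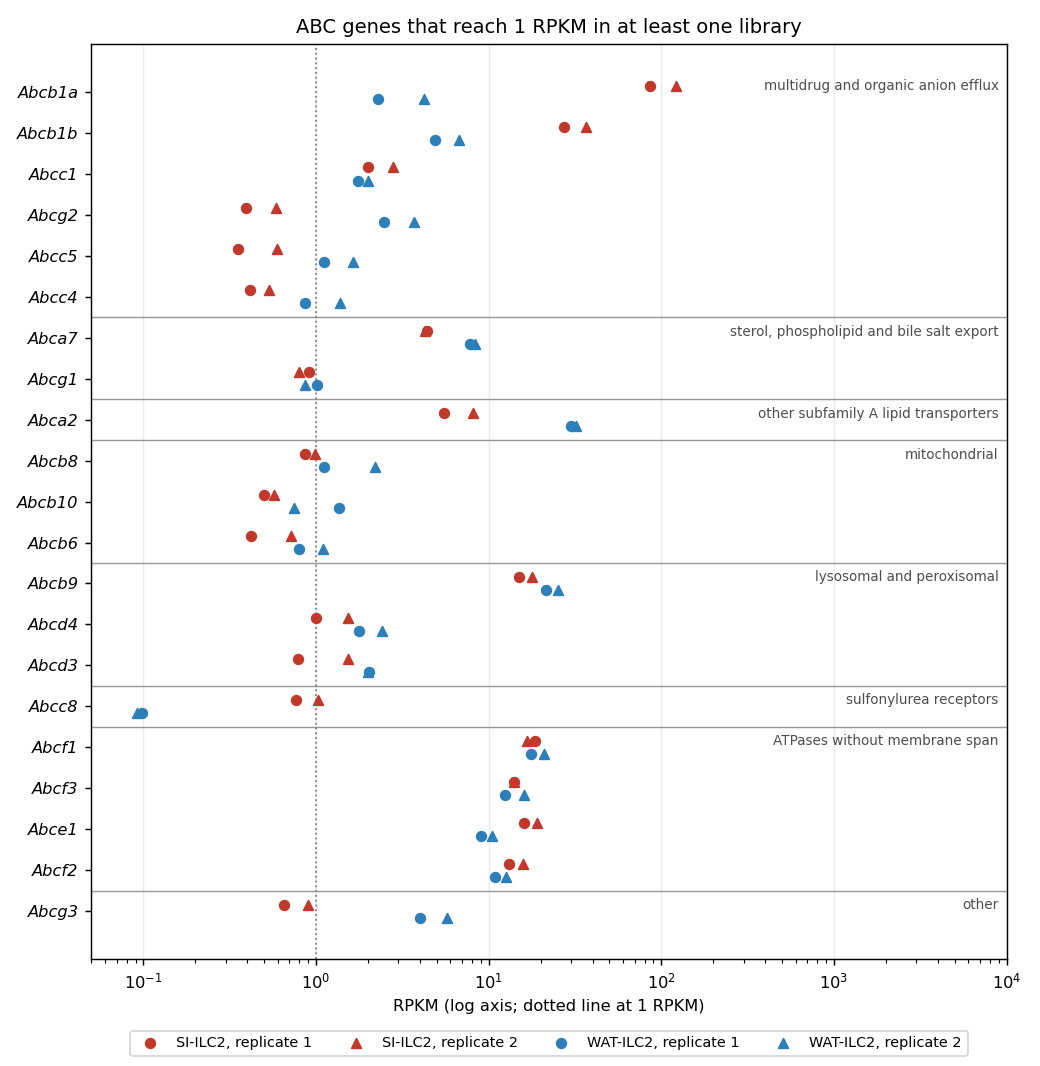
RPKM in each library (log axis) of 21 ABC genes that reached 1 RPKM in at least 1 library, grouped by role, with SI-ILC2 points above WAT-ILC2 points in each row. Abcb1a and Abcb1b have SI-ILC2 points far to the right of the WAT-ILC2 points, and Abcg2, Abcg3 and Abca2 the reverse.

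The summed RPKM of the 50 genes was 215 and 275 in SI-ILC2s, against 143 and 171 in WAT-ILC2s. Abcb1a and Abcb1b together held 52.7% and 57.8% of this sum in SI-ILC2s, against 5.01% and 6.42% in WAT-ILC2s. Without the pair, the sum was lower in SI-ILC2s, at 102 and 116 RPKM, than in WAT-ILC2s, at 136 and 160 RPKM. The order of the levels also differed between the tissues. In SI-ILC2s Abcb1a, Abcb1b, Abcf1, Abce1 and Abcb9 had the highest means, and in WAT-ILC2s Abca2, Abcb9, Abcf1, Abcf3 and Abcf2. The libraries of Abcf1, Abce1 and Abcb9 overlapped in SI-ILC2s, and those of Abcf3 and Abcf2 overlapped in WAT-ILC2s. Within libraries, Abce1 was above Abcb9 in both SI-ILC2 replicates, and Abcf3 above Abcf2 in both WAT-ILC2 replicates. Abcf1 was above Abce1 and Abcb9 in SI-ILC2 replicate 1 and below both in replicate 2. With 2 libraries per tissue, the order of these neighbours is not firm. Abcb1a ranked 11th in WAT-ILC2s.

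**Figure D2:**
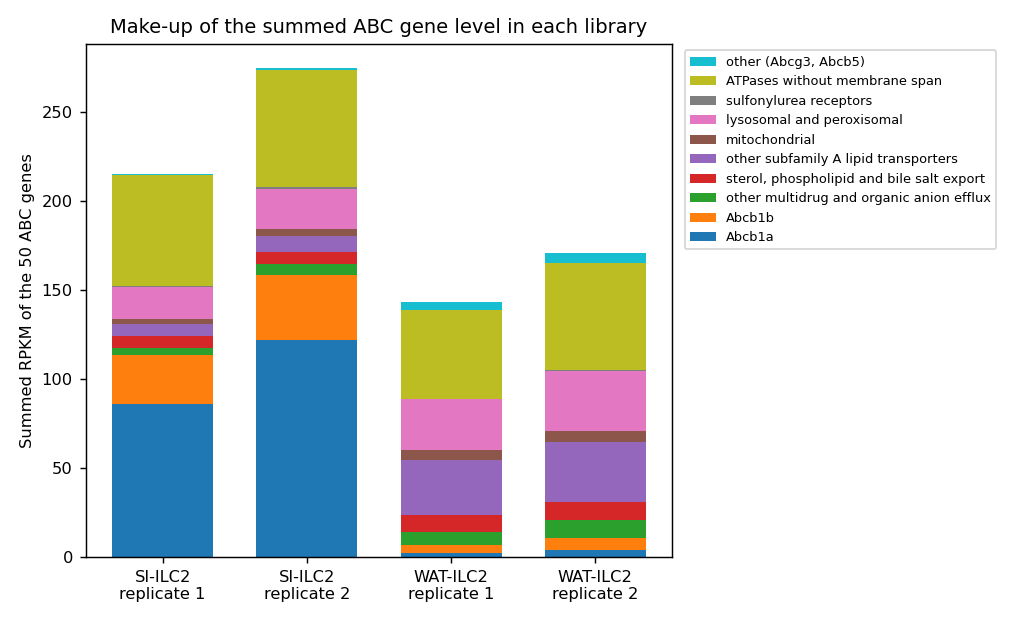
Stacked bars of the summed RPKM of the 50 ABC genes in each library, split by role with Abcb1a and Abcb1b on their own. The pair fills more of each SI-ILC2 bar than all other roles together and 5.01% and 6.42% of the WAT-ILC2 bars.

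Abcb1a was the ABC gene with the greatest difference. It was at 86.2 and 122 RPKM in SI-ILC2s, against 2.29 and 4.22 RPKM in WAT-ILC2s, and the groups lay far apart. Its mean was 104 ± 25.5 RPKM in SI-ILC2s, against 3.25 ± 1.37 RPKM in WAT-ILC2s (SD, n = 2 each), 32.0-fold higher in SI-ILC2s, with a change of 4.65 (SE 0.27) that ranked 3rd toward SI-ILC2s among all 8230 genes. At the depth above, the WAT-ILC2 values rest on about 694 and 1517 reads. Abcb1b was at 27.3 and 36.4 RPKM in SI-ILC2s, against 4.89 and 6.75 RPKM in WAT-ILC2s, a change of 2.27 (SE 0.21) and rank 57. Abcb1a was thus the more abundant paralog in SI-ILC2s, at 3.16 and 3.36 times the RPKM of Abcb1b, and the less abundant in WAT-ILC2s, at 0.468 and 0.625 times. Both were called higher in SI-ILC2s under every alternative tried. Of the 5480 exonic bases of Abcb1a, 553 overlap Gm42686 on the opposite strand, and of the 7990 of Abcb1b, 143 overlap Gm5106. No source used here says whether reads were counted by strand.

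Intestinal epithelium also makes P-glycoprotein, so its markers are given beside these values. Of the 16 epithelial markers, 11 were below 1 RPKM in all 4 libraries, and their sum was 8.22 and 15.3 RPKM in SI-ILC2s, against 16.0 and 13.05 RPKM in WAT-ILC2s. The only 2 that were tested, Epcam, for an epithelial adhesion molecule, and Lgals4, for a gut lectin, were called higher in WAT-ILC2s and made up most of the WAT-ILC2 sums. Epcam was at 4.68 and 6.04 RPKM in SI-ILC2s, against 8.28 and 7.85 RPKM in WAT-ILC2s, and Lgals4 at 1.37 and 1.09 RPKM, against 4.94 and 3.68 RPKM. Vil1, which encodes a brush border protein, was at 0.171 and 0.519 RPKM in SI-ILC2s, against 0.0513 and 0.193 RPKM in WAT-ILC2s, and Fabp1, Fabp2, Cdh17, Apoa4 and Muc2 were below 0.2 RPKM in every library. Krt8 and Krt18 were at 4.32 and 2.01 RPKM in SI-ILC2 replicate 2 and at 0.240 and 0.254 RPKM in SI-ILC2 replicate 1. Replicate 2 was also higher for Abcb1a, and for 16 of the 18 tested ABC genes in all. In WAT-ILC2s, Krt8 (0.369 and 0.194 RPKM) and Krt18 (0.2315 and 0.0978 RPKM) were lower in replicate 2, where Abcb1a was higher. Krt20, Cdh17, Apoa1, Apoa4, Alpi, Lgals4 and Muc2 were lower in SI-ILC2 replicate 2 than in replicate 1, and the other epithelial markers were higher. Markers of B and plasma cells moved with the pair, with a sum over 5 genes of 24.6 and 18.9 RPKM in SI-ILC2s, against 3.07 and 2.49 RPKM in WAT-ILC2s. Nearly all of this came from Cd79b and Igj, the older symbol of Jchain, while the defining B cell genes Cd79a and Ms4a1 were below 0.4 RPKM in every library. Of the other lists, the 5 NK cell and ILC1 markers summed to 1.54 and 1.56 RPKM in SI-ILC2s, against 0.575 and 0.791 RPKM in WAT-ILC2s. The 4 ILC3 markers summed to 2.83 and 4.62 RPKM in SI-ILC2s, against 0.336 and 0.438 RPKM in WAT-ILC2s. In SI-ILC2s, most of the first sum came from Prf1 (0.928 and 1.003 RPKM) and most of the second from Il22 (1.76 and 3.50 RPKM). Tbx21 and Il23r overlapped, the others had SI-ILC2s above, and Ncr1 is in both lists. The part of all these cells in the Abcb1a and Abcb1b values was not tested. In bulk samples such as these, fewer cells of a type and less RNA per cell cannot be told apart.

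The third gene of the cluster, Abcb4, encodes the pump that moves phosphatidylcholine into bile. It was at 0.846 and 0.954 RPKM in SI-ILC2s, against 0.102 and 0.138 RPKM in WAT-ILC2s, separated but below the filter. On the other side of Abcb1a, Rundc3b, which is no ABC gene, was at 4.69 and 5.41 RPKM in SI-ILC2s, against 0.772 and 0.665 RPKM in WAT-ILC2s, a change of 1.81 (SE 0.14), and was called. Crot, next to Abcb4, had WAT-ILC2s above, at 5.97 and 6.32 RPKM in SI-ILC2s, against 7.12 and 7.05 RPKM in WAT-ILC2s, without a call. The other tested genes farther out were not called either, with changes of 0.05 for Dbf4, 0.18 for Tmem243 and 0.02 for Dmtf1. Slc25a40, the gene between Dbf4 and Rundc3b, was at 0.933 and 0.703 RPKM in SI-ILC2s, against 0.661 and 1.10 RPKM in WAT-ILC2s, so its groups overlapped. The 4 neighbouring genes from Rundc3b to Abcb4 therefore all had SI-ILC2 libraries above WAT-ILC2 libraries, and this stretch of chromosome 5 was chosen for description after the values were seen. Their values may not be separate, since reads of Abcb1a can match Abcb1b and Abcb4. The RefSeq start of Abcb1a also lies inside Rundc3b, on the opposite strand, and whether reads were counted by strand is not stated. Such sharing of reads was not tested.

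**Figure D3:**
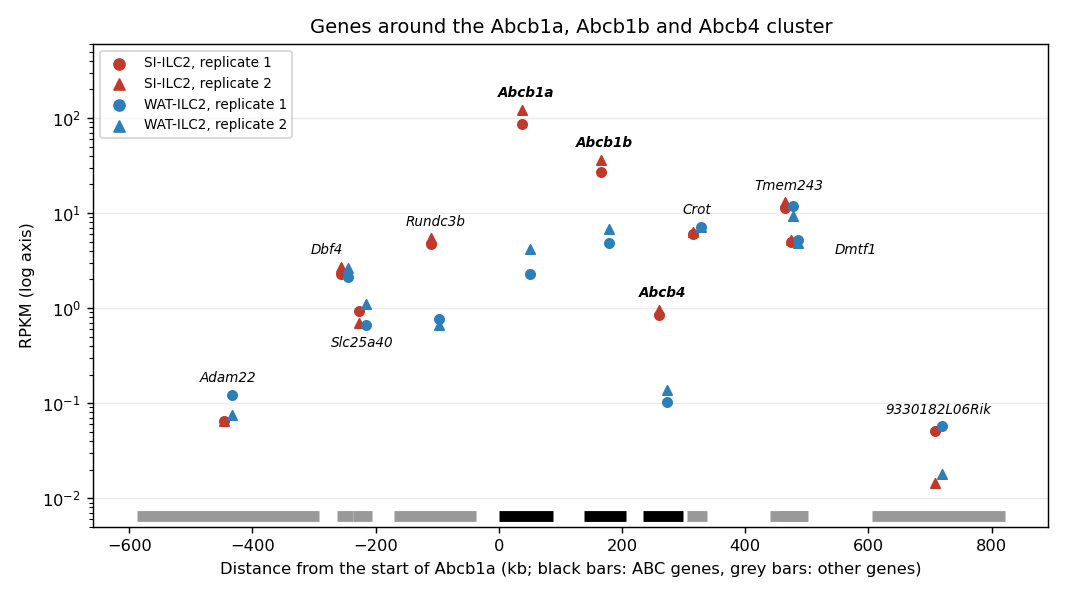
RPKM (log axis) of each gene in the table within 500 kb of the Abcb1a, Abcb1b and Abcb4 cluster, plotted at the middle of the gene against the distance from the start of Abcb1a, with bars at the bottom for the extent of each gene and SI-ILC2 points left of WAT-ILC2 points. Rundc3b, Abcb1a, Abcb1b and Abcb4 have separated tissues, with SI-ILC2s above. Crot and Adam22, which does not exceed 0.123 RPKM, are separated with WAT-ILC2s above. Dbf4, Slc25a40, Tmem243, Dmtf1 and 9330182L06Rik overlap.

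None of the other multidrug and organic anion pumps was called higher in SI-ILC2s. Abcg2, the breast cancer resistance protein gene, whose product exports urate, porphyrins and many drugs, was at 0.392 and 0.588 RPKM in SI-ILC2s, against 2.46 and 3.70 RPKM in WAT-ILC2s, a change of -1.44 (SE 0.18; -2.42 with a pseudocount of 0.1), and was called higher in WAT-ILC2s. Abcc5, an exporter of cyclic nucleotides, was at 0.352 and 0.595 RPKM in SI-ILC2s, against 1.11 and 1.63 RPKM in WAT-ILC2s, a change of -0.68 (SE 0.16; -1.37 with a pseudocount of 0.1), and was called, a call lost without SI-ILC2 replicate 1 (change -0.56) and with no filter. Abcc4, which exports cyclic nucleotides and prostaglandins, was at 0.415 and 0.537 RPKM in SI-ILC2s, against 0.860 and 1.38 RPKM in WAT-ILC2s, separated but below the filter. Abcc1, the exporter of glutathione conjugates that include leukotriene C4, was at 1.99 and 2.78 RPKM in SI-ILC2s, against 1.76 and 2.01 RPKM in WAT-ILC2s, with overlapping libraries and no call. Its change of 0.22 was 0.05 without SI-ILC2 replicate 2 and 0.39 without SI-ILC2 replicate 1. Of the 11 genes of this role 5 were tested, with 2 called in each direction, and Abcc2, Abcc3, Abcc6, Abcc10 and Abcc12 stayed below 0.7 RPKM in every library.

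Abcg3, a rodent relative of Abcg2, was at 0.653 and 0.903 RPKM in SI-ILC2s, against 4.02 and 5.71 RPKM in WAT-ILC2s, a change of -1.71 (SE 0.18), and was called. The RPKM of Abcg3 was 1.67 and 1.54 times that of Abcg2 in SI-ILC2s, against 1.63 and 1.54 times in WAT-ILC2s, so the ratio held across a several-fold difference in level. The transcripts of Abcg2 and Abcg3 shared none of their 50-base words. Endothelium and red cells, in which Abcg2 is also known, had higher marker sums in WAT-ILC2s. The 9 endothelial markers summed to 7.01 and 10.6 RPKM in SI-ILC2s, against 11.8 and 26.8 RPKM in WAT-ILC2s, with Cdh5, Kdr and Tek below 1 RPKM in every library. These genes, Emcn and Vwf were below the filter, each with both WAT-ILC2 libraries above both SI-ILC2 libraries. Emcn was at 0.157 and 0.127 RPKM in SI-ILC2s, against 0.807 and 1.13 RPKM in WAT-ILC2s. Cldn5 and Egfl7 overlapped. Plvap made up the greatest part of the WAT-ILC2 endothelial sum and was called higher there, at 2.01 and 2.44 RPKM in SI-ILC2s, against 5.17 and 16.2 RPKM in WAT-ILC2s, whereas Pecam1, with 3.88 and 4.49 RPKM in SI-ILC2s, against 2.04 and 2.97 RPKM in WAT-ILC2s, was called the other way. The 6 red cell markers, of which 5 were called higher in WAT-ILC2s, summed to 41.6 and 13.2 RPKM in SI-ILC2s, against 140 and 88.9 RPKM in WAT-ILC2s. The 9 fibroblast markers summed to 1.29 and 1.69 RPKM in SI-ILC2s, against 10.6 and 5.10 RPKM in WAT-ILC2s, the 9 adipocyte markers to 1.27 and 0.888 RPKM, against 5.42 and 4.92 RPKM, and the 8 T cell markers to 37.1 and 30.7 RPKM, against 77.9 and 56.7 RPKM. Adipoq and Plin1, which define adipocytes, stayed below 0.2 RPKM, while Fabp4, which made up most of the WAT-ILC2 adipocyte sum, was called higher in WAT-ILC2s, at 0.257 and 0.172 RPKM in SI-ILC2s, against 4.32 and 3.43 RPKM in WAT-ILC2s. The fibroblast genes Dcn and Col3a1 and the T cell genes Lat and Cd3g were also called higher in WAT-ILC2s. Lat and Cd3g made up most of the T cell sums, and the rest of that list did not follow them. Cd3e was not called, at 1.19 and 1.48 RPKM in SI-ILC2s, against 1.81 and 1.39 RPKM in WAT-ILC2s. Cd3d, Cd4, Cd8a and Cd8b1 were low and overlapped, and Cd5 was low with SI-ILC2s above. Of the fibroblast markers, Pdgfra overlapped, Pdgfrb had SI-ILC2s above and all others had WAT-ILC2s above. The part of these cells in the Abcg2 and Abcg3 values was not tested.

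Sterol and phospholipid exporters were mostly low. Abca7, a phospholipid transporter of leukocytes and brain, was the exception at 4.38 and 4.28 RPKM in SI-ILC2s, against 7.78 and 8.33 RPKM in WAT-ILC2s, a change of -0.76 (SE 0.14), and was the 1 tested gene of 8 in this role, called higher in WAT-ILC2s. Abca1, which loads lipid onto apolipoprotein A-I, was at 0.273 and 0.384 RPKM in SI-ILC2s, against 0.487 and 0.547 RPKM in WAT-ILC2s, separated but below the filter. Abcg1, which exports sterol to high-density lipoprotein, was at 0.909 and 0.793 RPKM in SI-ILC2s, against 1.008 and 0.859 RPKM in WAT-ILC2s, with overlapping libraries. The bile pumps Abcb11, Abcg5 and Abcg8 did not exceed 0.21 RPKM in any library, and Abcg4 and Abcb5, a gene outside the named roles, did not exceed 0.114 RPKM.

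Abca2, which encodes a lipid transporter of late endosomes and lysosomes, was the most abundant ABC gene of WAT-ILC2s. It was at 5.53 and 8.10 RPKM in SI-ILC2s, against 29.8 and 32.3 RPKM in WAT-ILC2s, a change of -2.06 (SE 0.19) that ranked 74th toward WAT-ILC2s among all tested genes, and its call held under every alternative tried. The other 13 genes of the subfamily A role reached at most 0.471 RPKM, the level of Abca3, the surfactant lipid transporter of the lung, in WAT-ILC2 replicate 2. Abca5 was at 0.289 and 0.321 RPKM in SI-ILC2s, against 0.280 and 0.222 RPKM in WAT-ILC2s, and Abca4, Abca6, Abca8a, Abca8b, Abca9, Abca12, Abca13, Abca14, Abca15, Abca16 and Abca17 stayed at or below 0.156 RPKM in every library. Macrophages also express lipid transporters, and the 11 macrophage and dendritic cell markers summed to 5.15 and 3.49 RPKM in SI-ILC2s, against 8.31 and 11.3 RPKM in WAT-ILC2s, with C1qa, C1qb, C1qc and Csf1r below 0.8 RPKM in every library. Lyz2, the lysozyme gene, was called higher in WAT-ILC2s, at 0.633 and 0.331 RPKM in SI-ILC2s, against 3.53 and 5.50 RPKM in WAT-ILC2s. Emr1, for a macrophage surface protein, was below the filter at 0.0868 and 0.0316 RPKM, against 0.357 and 0.689 RPKM. Cd14 and Cd68, the other tested markers of this list, overlapped and were not called. Of the rest, C1qa, C1qb, Csf1r and Mrc1 overlapped, Fcgr1 had SI-ILC2s above, and C1qc and Itgax had WAT-ILC2s above. The part of macrophages and dendritic cells in the Abca2 and Abca7 values was not tested.

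**Figure D4:**
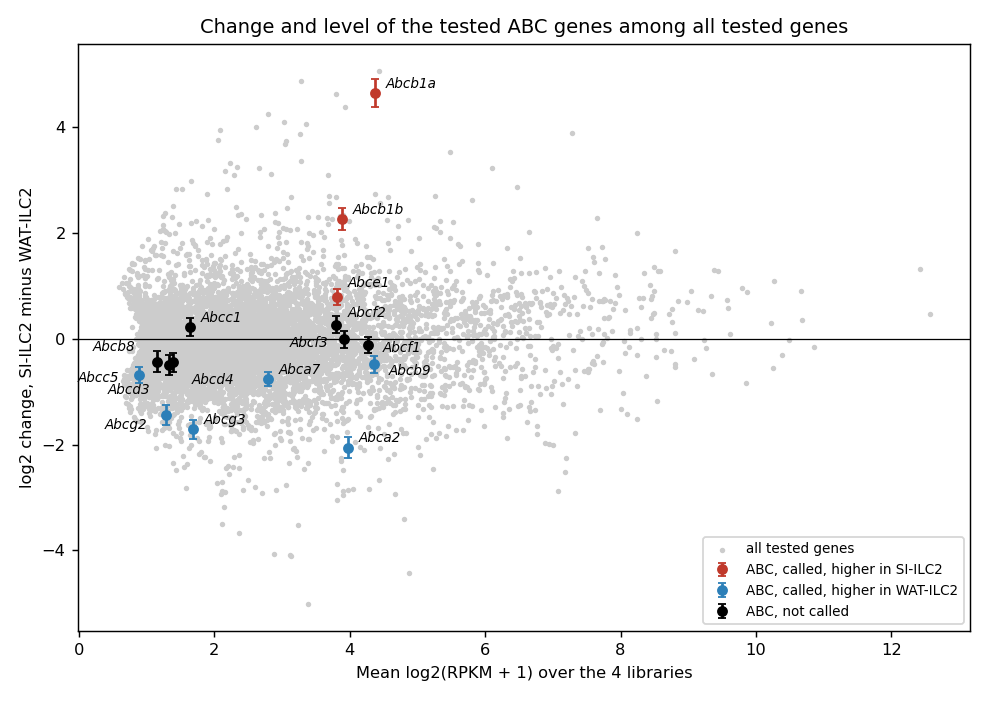
Change between the tissues (log2, SI-ILC2 minus WAT-ILC2, bars are the SE) against the mean log2(RPKM + 1) of the 4 libraries for 16 tested ABC genes, over all 8230 tested genes in grey. Abcb1a lies near the upper edge of all genes at 4.65, and Abca2, at -2.06, is the lowest of those drawn.

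The organelle transporters that were tested were either called higher in WAT-ILC2s or not called. Abcb9, a peptide transporter of lysosomes, was at 15.1 and 17.8 RPKM in SI-ILC2s, against 21.4 and 25.2 RPKM in WAT-ILC2s, a change of -0.48 (SE 0.16), and its call was lost without SI-ILC2 replicate 1 (-0.36), without SI-ILC2 replicate 2 (-0.59), without WAT-ILC2 replicate 2 (-0.36), with no filter and after median-of-ratios scaling or quantile normalization. Abcd3, a peroxisomal importer gene, was at 0.782 and 1.53 RPKM in SI-ILC2s, against 2.01 and 1.99 RPKM in WAT-ILC2s, and Abcd4, which serves cobalamin transport out of lysosomes, at 1.004 and 1.54 RPKM in SI-ILC2s, against 1.77 and 2.41 RPKM in WAT-ILC2s. Neither was called, with changes of -0.50 and -0.45. Abcd3 was called without SI-ILC2 replicate 2 (-0.75), without either WAT-ILC2 replicate and after rescaling to equal sums, and Abcd4 was called without WAT-ILC2 replicate 1. Abcd2 did not exceed 0.0428 RPKM in any library.

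The mitochondrial genes Abcb6, Abcb8 and Abcb10 each had both WAT-ILC2 libraries above both SI-ILC2 libraries, and none was called. Abcb8 was at 0.863 and 0.991 RPKM in SI-ILC2s, against 1.12 and 2.19 RPKM in WAT-ILC2s, a change of -0.43 that was -0.73, and called, without WAT-ILC2 replicate 1 and -0.14 without WAT-ILC2 replicate 2. Abcb10, which takes part in haem synthesis, was at 0.498 and 0.572 RPKM in SI-ILC2s, against 1.35 and 0.742 RPKM in WAT-ILC2s, and Abcb6, a porphyrin transporter gene, at 0.418 and 0.714 RPKM in SI-ILC2s, against 0.798 and 1.09 RPKM in WAT-ILC2s. Both were below the filter. The Abcb6 values are uncertain, since 2932 of its 5315 exonic bases are shared with Gm29253 on the same strand.

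The sulfonylurea receptor gene Abcc8, which encodes the regulatory subunit of ATP-sensitive potassium channels, stood apart among the genes below the filter. It was at 0.768 and 1.03 RPKM in SI-ILC2s, against 0.0982 and 0.0922 RPKM in WAT-ILC2s, where the values rest on about 44 and 49 reads. When all 22083 genes were fitted with no filter, Abcc8 and Abcb4 were called higher in SI-ILC2s, with changes of 0.79 and 0.76. The Abcb4 values may include reads of Abcb1a, as stated above. Abcc9, the related receptor gene, was at 0.0697 and 0.0360 RPKM in SI-ILC2s, against 0.0640 and 0.398 RPKM in WAT-ILC2s, so only WAT-ILC2 replicate 2 was high.

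The ATPases without a membrane span were abundant in both tissues. Abce1, which splits ribosomes after termination so that they can be reused, was at 16.1 and 19.0 RPKM in SI-ILC2s, against 9.08 and 10.4 RPKM in WAT-ILC2s, a change of 0.78 (SE 0.15), and was called higher in SI-ILC2s, a call lost without SI-ILC2 replicate 2 (0.67). Abcf1, which takes part in translation initiation, was at 18.6 and 16.7 RPKM in SI-ILC2s, against 17.6 and 20.8 RPKM in WAT-ILC2s, and Abcf3 at 14.0 and 14.1 RPKM in SI-ILC2s, against 12.4 and 16.1 RPKM in WAT-ILC2s. The libraries of both genes overlapped between tissues, and their changes of -0.11 and -0.01 had the opposite sign after median-of-ratios scaling. Abcf2 was at 13.1 and 15.7 RPKM in SI-ILC2s, against 10.9 and 12.7 RPKM in WAT-ILC2s, a change of 0.27 that was not called.

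Genes outside the symbol rule that belong to the same pathways moved in both directions. The peptide transporter genes Tap1 and Tap2, ABC proteins under another symbol, were not called, at 22.3 and 31.0 RPKM and 8.24 and 12.7 RPKM in SI-ILC2s, against 22.0 and 29.8 RPKM and 8.06 and 18.0 RPKM in WAT-ILC2s. Cftr was below the filter, at 0.0484 and 0.495 RPKM in SI-ILC2s, against 0.0436 and 0.0400 RPKM in WAT-ILC2s. Only SI-ILC2 replicate 2 was high. Krt8 and Krt18 were also high in that library, while the other epithelial markers went both ways between the SI-ILC2 replicates, as given above. An epithelial part in the Cftr values was not tested. The lists of related genes were chosen with earlier results of these data known, so their counts and median changes are a description. Of 17 nuclear receptors and other regulators of efflux pumps and sterol export, 9 were tested, with a median change of 1.17 beside -0.15 for all tested genes. Of the 9, 5 were called toward SI-ILC2s and 1 toward WAT-ILC2s, beside 17.9% and 29.6% of all tested genes. The 5 were Ahr (9.97 and 11.7 RPKM in SI-ILC2s, 1.18 and 1.04 RPKM in WAT-ILC2s), the sensor of aromatic xenobiotics, Epas1, Hif1a, Rxrg and Nfe2l2, the factor of the antioxidant response (26.1 and 23.7 RPKM in SI-ILC2s, 10.7 and 10.2 RPKM in WAT-ILC2s), and Pparg was the 1 higher in WAT-ILC2s (21.2 and 18.5 RPKM in SI-ILC2s, 27.3 and 28.5 RPKM in WAT-ILC2s). The hypoxia factor gene Epas1 was at 63.2 and 74.1 RPKM in SI-ILC2s, against 1.83 and 1.79 RPKM in WAT-ILC2s, and its relative Hif1a at 19.4 and 33.5 RPKM, against 8.17 and 13.5 RPKM. Rxrg, a gene for a partner receptor of LXRs, was at 8.11 and 7.21 RPKM in SI-ILC2s, against 1.55 and 1.19 RPKM in WAT-ILC2s. The drug-sensing receptor gene Nr1i2, known to induce P-glycoprotein in liver and gut, did not exceed 0.085 RPKM in any library. Its relative Nr1i3 was at 0.553 and 0.413 RPKM in SI-ILC2s, against 0.916 and 1.37 RPKM in WAT-ILC2s.

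The LXR gene Nr1h2 was at 22.4 and 25.5 RPKM in SI-ILC2s, against 27.8 and 32.4 RPKM in WAT-ILC2s and was not called, and Nr1h3 stayed below 0.4 RPKM. Of 10 LXR targets outside the family, 8 were tested, 2 were called higher in SI-ILC2s (Smpdl3a and Scd2) and 4 in WAT-ILC2s (Mylip, Lpcat3, Apoe and Pltp), with a median change of -0.38. Mylip, which marks lipoprotein receptors for degradation, was at 13.7 and 12.0 RPKM in SI-ILC2s, against 28.6 and 25.7 RPKM in WAT-ILC2s. Lpcat3, which remodels phospholipids, was at 13.8 and 13.1 RPKM in SI-ILC2s, against 29.8 and 29.8 RPKM in WAT-ILC2s. The lipoprotein gene Apoe was at 1.97 and 1.10 RPKM in SI-ILC2s, against 2.87 and 4.42 RPKM in WAT-ILC2s, and Pltp, for a phospholipid transfer protein, at 0.401 and 0.724 RPKM, against 1.47 and 2.37 RPKM. In the other direction, Smpdl3a was at 74.5 and 69.1 RPKM in SI-ILC2s, against 55.3 and 46.6 RPKM in WAT-ILC2s, and the desaturase gene Scd2 at 1.59 and 1.91 RPKM, against 0.714 and 0.757 RPKM. Bile acid carriers and their receptor were low, with 6 of 8 genes below 1 RPKM in all libraries and Slco2b1 called higher in WAT-ILC2s (0.732 and 0.501 RPKM in SI-ILC2s, 1.31 and 1.67 RPKM in WAT-ILC2s). The bile acid exporter subunit gene Slc51a was below the filter, at 0.764 and 0.565 RPKM in SI-ILC2s, against 0.0450 and 0.0951 RPKM in WAT-ILC2s.

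Among 15 genes of glutathione and leukotriene synthesis and conjugation, which supply substrates of subfamily C pumps, 9 were tested, with a median change of -0.20. Gsto1 was called higher in SI-ILC2s (12.6 and 10.4 RPKM in SI-ILC2s, 6.20 and 5.51 RPKM in WAT-ILC2s), and Alox5, the glutathione synthetase gene Gss (0.750 and 0.917 RPKM in SI-ILC2s, 1.77 and 1.99 RPKM in WAT-ILC2s) and the transferase gene Gstp1 (3.88 and 3.38 RPKM in SI-ILC2s, 6.17 and 4.86 RPKM in WAT-ILC2s) were called higher in WAT-ILC2s. Alox5, the 5-lipoxygenase gene, was at 5.61 and 5.05 RPKM in SI-ILC2s, against 143 and 127 RPKM in WAT-ILC2s, while Ltc4s, the synthase gene for leukotriene C4, did not exceed 0.21 RPKM. Of 9 partner genes in ribosome rescue, iron-sulfur cluster assembly and cobalamin handling, 7 were tested. Etf1, a translation release factor gene (15.52 and 15.9 RPKM in SI-ILC2s, 11.5 and 11.1 RPKM in WAT-ILC2s), and Glrx5, an iron-sulfur cluster gene (4.45 and 5.399 RPKM in SI-ILC2s, 1.99 and 1.86 RPKM in WAT-ILC2s), were called higher in SI-ILC2s, and Nfs1, the cysteine desulfurase gene, was called higher in WAT-ILC2s (2.21 and 2.30 RPKM in SI-ILC2s, 3.60 and 3.39 RPKM in WAT-ILC2s).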

How the data were processed

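RNA of 4 libraries was sequenced, and the authors deposited 1 table of RPKM, with 22083 genes and a column per library. Per the submitters' processing notes, the tools were STAR 2.6.0 and, from Subread, featureCounts 1.6.0, on build GRCm38 (mm10). The sources used here do not give the gene annotation, the strand mode, the handling of reads with several matches or any filters. RPKM adjusts for length and depth but not for composition. Depth was estimated from single-exon genes, in which 83.4% to 85.1% of low values fell within 0.1 of a whole read, against 20% by chance. Read numbers are approximate, since the authors' gene lengths are not known.

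Groups came from the sample titles. Genes with at least 1 RPKM in at least 2 libraries were fitted as log2(RPKM + 1) with limma 3.58.1 in R 4.3.3 (variance trend, no covariate, all 4 libraries), and p-values were adjusted over all 8230 genes at a threshold of 0.05. The log2 scale with a pseudocount of 1 understates changes of low genes. An exact permutation test of 2 libraries against 2 cannot go below 0.333. The steps were tested on simulated data. Exon lengths, overlaps and 50-base words came from GENCODE M21, upstream sequences from RefSeq (GRCm38.p6). Other steps used Python 3.11.15 (numpy 2.4.6, pandas 2.3.3, matplotlib 3.10.9).

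The ABC genes, the 6 lists of related genes and the 11 lists of cell markers were chosen with earlier results of these data known. ABC genes that reached 1 RPKM in a library were named, and the called genes of the related lists; a few genes that enter the counts are not reported here by name. Alternatives changed the pseudocount, filter, scaling, variance trend or block, or left out 1 library.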

Additional observations from a re-analysis of the deposited data

How the results depend on the processing

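Abca2, Abca7, Abcb1a, Abcb1b, Abcg2 and Abcg3 were called in the same direction under all 13 alternatives, in which the change of Abcb1a ranged from 4.31 to 5.001 that of Abca2 from -2.29 to -1.82, that of Abcg2 from -2.42 to -1.22 and that of Abcg3 from -2.49 to -1.50. The pseudocount moved low genes most: at 0.1, Abcc5 was at -1.37, and the uncalled Abcb8, Abcd3 and Abcd4 at -0.70, -0.81 and -0.69. The 10 called ABC genes all kept their direction. With no filter on low values, 896 and 1349 of all genes were called higher in SI-ILC2s and WAT-ILC2s, fewer than with the filter, and 5 ABC genes were called higher in SI-ILC2s. After median-of-ratios scaling the changes of Abcf1 and Abcf3 turned to 0.0088 and 0.11, after quantile normalization that of Abcf3 to 0.0301; with 1 library left out they ranged from -0.23 to 0.0049 and from -0.19 to 0.17, with the positive values without WAT-ILC2 replicate 2. The cause was not tested. Leaving out 1 library at a time gave 983 to 1595 genes higher in SI-ILC2s and 1492 (without SI-ILC2 replicate 1) to 2551 higher in WAT-ILC2s, and 2 to 3 and 5 to 10 ABC genes; the lone library is then assumed to vary like the other tissue's. Deviations of same-numbered libraries correlated across 8230 genes, which are not independent replicates (r = 0.57), but the labels do not say that the numbers pair libraries. With the replicate number as a block, 2271 genes were called toward SI-ILC2s and 3430 toward WAT-ILC2s, among them 4 and 11 ABC genes. ABC genes called with the block and not without it included Abcb8, Abcd3, Abcd4 and Abcf2. The fit with the block, like those with 1 library left out, leaves each gene 1 degree of freedom for its own spread. Its variances are then drawn mainly from all genes together. Calls gained in these fits are thus no sign of pairing or of a better measured gene. With 2 libraries a tissue, genes near 1 RPKM have little precision.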
